A study of Homo sapiens and Mus musculus with 26 samples.

Results

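The genes described here encode the enzymes that charge, modify and process transfer RNA, followed in the human hepatocellular carcinoma line MHCC97H with and without knockdown of METTL1. Members were chosen by symbol alone: aminoacyl-tRNA synthetases, AIMP scaffold proteins, TRMT, TRMU, NSUN, CTU, ELP, PUS, ALKBH, FTSJ and METTL genes other than METTL1, and the TSEN, POP, RPP and ELAC genes. The deposited expression table listed 84 such genes among 8074, and 61 of them belong to 9 roles that act on tRNA. The other 23 carry the same name stems but are grouped here under rRNA, mRNA or snRNA methylation, ALKBH dioxygenases, or protein and other METTL methyltransferases. The synthetase pattern also takes in the symbols of the mitochondrial enzymes, which end in 2.

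Control cells (NC) and cells carrying 1 short hairpin RNA against METTL1, titled shMETTL1-2, were compared, so the knockdown is a model made with a single hairpin. The control libraries are labelled wild type, and the titles call them NC. Input RNA and polyribosome-associated mRNA, called polysome RNA here, were each sequenced in 3 repeats of both kinds of cell, which gives 4 groups of 3 libraries. All cells were grown in DMEM, and the stated aim was to find genes that are translated differently after knockdown. Nothing in the labels says that repeats came from separate cultures, so the p-values measure the spread between these libraries, which may be technical.

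A tRNA transcript is trimmed at its 5′ end by RNase P and at its 3′ end by RNase Z, some are spliced by the TSEN endonuclease, and the mature molecule is methylated, isomerized to pseudouridine and further modified at many positions. Modifications in the anticodon loop, such as those placed on the wobble uridine by Elongator and the CTU thiolase, tune decoding, while modifications in the body of the molecule stabilize its fold. Aminoacyl-tRNA synthetases then attach the amino acid, and separate nuclear genes encode most synthetases of mitochondria. METTL1, with its partner WDR4, places N7-methylguanosine on a subset of tRNAs, so its knockdown lowers an enzyme of the same pathway.

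METTL1 itself had lower values in all knockdown libraries than in any control library, at 47.9, 39.3 and 36 FPKM, a fragment count scaled for gene length and library size, in control input and 11.9, 18.3 and 15.3 FPKM in knockdown input, in the order of repeats 1 to 3. In polysome RNA it was at 45.3, 43.8 and 38.2 FPKM in control and 8.29, 22.9 and 25.6 FPKM in knockdown cells. Its log2 difference there was -1.26 (limma adjusted p = 0.0765 over the polysome libraries alone and 0.602 over all 12). In input RNA it was -1.39 (limma unadjusted p = 0.00279). METTL1 thus passed none of these tests at an adjusted p of at most 0.05, so a gene that does not pass below may still differ. Repeat 1 stood apart from repeats 2 and 3 in all 4 groups: over the 84 members, the SD of the log2 difference between control input repeats 1 and 2 was 1.05, against 0.136 between repeats 2 and 3, and in control polysome RNA these SDs were 0.368 and 0.1002. Of 15 liver cell markers, 4 were listed (KRT8, KRT18 and HNF4A among them), and ALB and AFP, defining products of liver cells, were among the 11 not analysed here. The summed level of the 4 ranged from 3847 to 5436 FPKM in control and from 3834 to 7965 FPKM in knockdown polysome libraries. In input RNA it ranged from 3335 to 19802 FPKM in control and from 2983 to 20027 FPKM in knockdown libraries, and its part in the results was not tested. Leukocyte markers had 2 of 8 listed (CD79A and CD68), endothelial markers 0 of 4 and fibroblast markers 0 of 6. Read depth is not part of the table, and so single values carry no counting error here.

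The members spanned a wide range of levels. Their mean over the 12 libraries ran from 2.34 FPKM for NSUN6, a cytosine methyltransferase of tRNA, to 663 FPKM for TRMT112, a small protein that activates several methyltransferases, with a median of 18.9 FPKM. POP7, a small subunit shared by RNase P and RNase MRP, followed at 254 FPKM, METTL26 at 189 FPKM, RPP21, another RNase P subunit, at 153 FPKM and FARSA, the catalytic chain of cytosolic phenylalanyl-tRNA synthetase, at 115 FPKM. Mitochondrial synthetases were low, with a median of 9.68 FPKM over the 12 listed and TARS2, the threonyl enzyme, highest at 45.8 FPKM. Together the members took 0.443 to 0.562% of the summed FPKM of a library. No gene in the table was below 1 FPKM in any library, so a gene that dropped below that level anywhere cannot be seen. Of 38 symbols on the list of cytosolic synthetases, older names included, only FARSA and FARSB were analysed here.

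In polysome RNA, 9 members were lower and 3 higher in knockdown cells by the test of the 6 polysome libraries alone. The lower members included TRMT10C, TRMT6 and TRMT61B among the tRNA methyltransferases, the pseudouridine synthase PUS7, POP1 of RNase P, the mitochondrial synthetase NARS2, and METTL15, a methyltransferase of mitochondrial rRNA. The higher members were ALKBH2, ALKBH5 and CTU2. These 12 genes were 14.3% of the members, near the 13.8% of all 8074 genes that this test called (limma, adjusted p of at most 0.05). Lower calls made up 10.7% of the members and 12.7% of all genes, and higher calls 3.57% and 1.09%. At an unadjusted p under 0.05 the same test had 25 members (29.8%) and 31.3% of all genes. In bulk libraries such as these, fewer cells with a transcript and less of it per cell cannot be told apart.

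With all 12 libraries in 1 fit, which takes the spread from the input libraries too, 0 of the 84 members and 0% of all genes passed. At an unadjusted p under 0.05 that fit had 8 members (9.52%) and 7.54% of all genes. The mean difference was above 0 in 37 members (44%), beside 47% of all genes. Knockdown and control polysome libraries did not overlap in 13 higher and 20 lower members. These were 15.5% and 23.8% of the members, beside 13.7% and 26.5% of all genes. The median log2 difference, on the log2(FPKM + 1) scale that understates changes of low genes, was -0.045 over the members and -0.031 over all genes. Setting the libraries to equal medians moved the median of all genes to 0.14 and that of the members to 0.13, and the calls in the polysome libraries alone became 5 higher and 4 lower (10.7% of members, beside 8.14% of all genes), so directions of small differences depend on this scaling. Repeats 2 and 3 lay close together, and with the pair averaged into 1 sample the test of polysome libraries alone called 0 members and 0 genes, with 9 members and 1175 genes at an unadjusted p under 0.05. With the repeat number as a block it called 36 members, 18 in each direction (42.9%, beside 42% of all genes), and without repeat 1 it called 48 (57.1%, beside 63%). Leaving out single libraries gave 0 members without control repeat 2, control repeat 3 or knockdown repeat 3, 4 without control repeat 1 (4.76%, beside 6.97% of all genes), 5 without knockdown repeat 2 (5.95%, beside 7.23%) and 25 without knockdown repeat 1 (29.8%, beside 31.6%). Thus each of the 12 calls was lost in 3 to 5 of these 6 settings. Equal medians also ended the calls of TRMT10C, TRMT6, PUS7, NARS2 and METTL15, and quantile normalization those of ALKBH5, PUS7, NARS2 and METTL15.

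**Figure D1:**
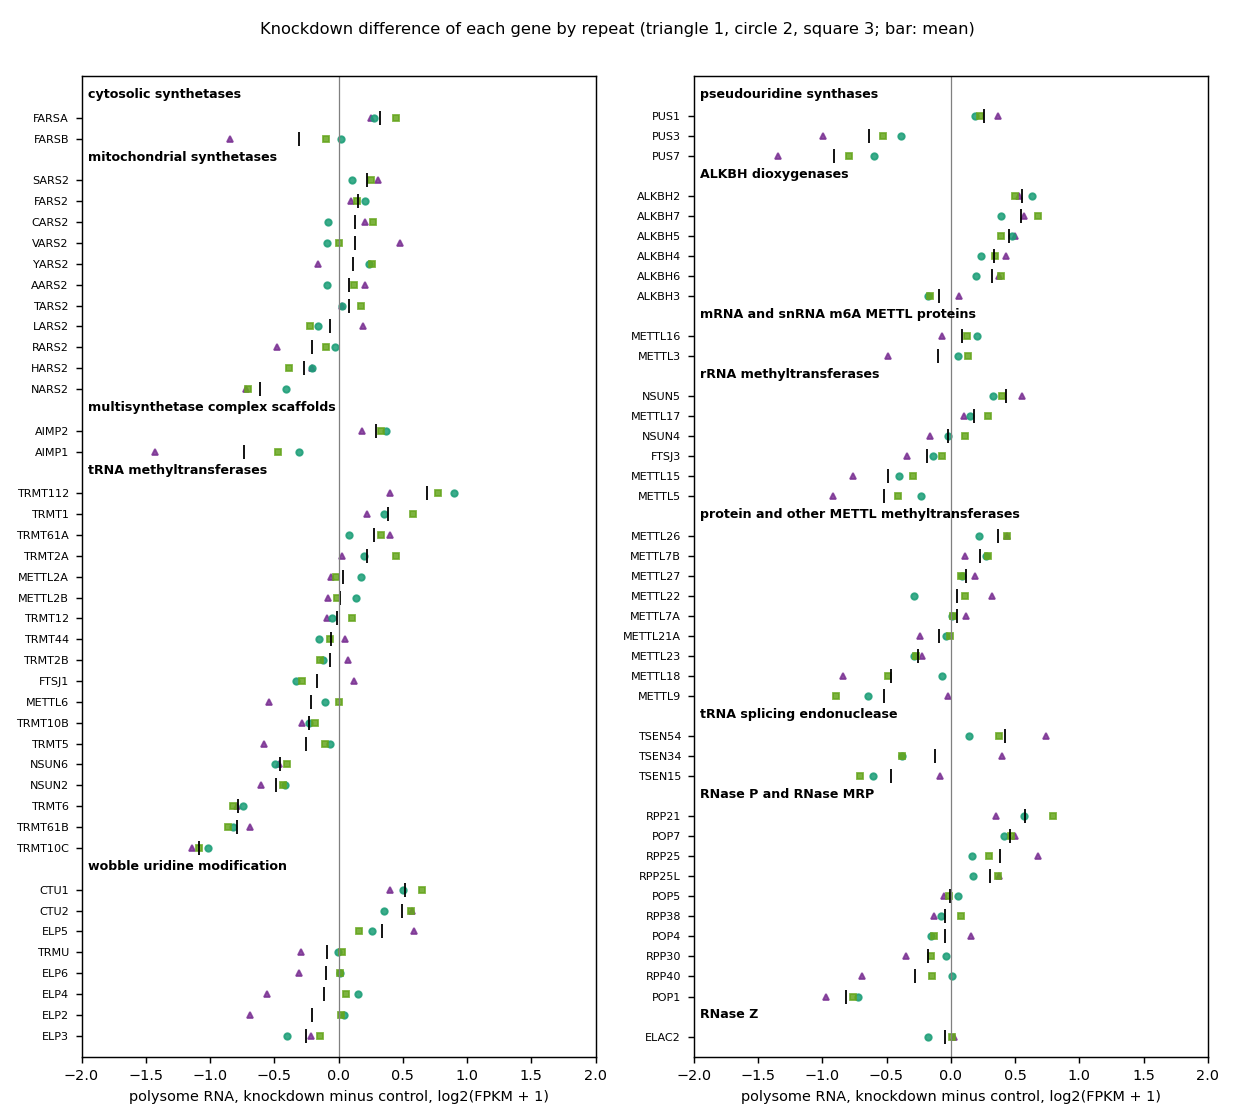
Knockdown minus control difference of log2(FPKM + 1) in polysome RNA for 81 of the 84 members, grouped by role, with 1 mark per repeat. Members of 1 role lie on both sides of 0, and repeat 1 is often farther from 0 than repeats 2 and 3, whose marks lie close together.

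TRMT10C was the member with the smallest p. It is a subunit of the mitochondrial RNase P, where it also forms, with HSD17B10, the methyltransferase for position 9 of mitochondrial tRNAs. Its polysome RNA was at 17, 20.3 and 22.4 FPKM in the control repeats and at 7.15, 9.51 and 10.04 FPKM in the knockdown repeats, which is 2.24-fold lower on average. The groups lay far apart, and the log2 differences of the repeats were close at -1.14, -1.02 and -1.09. The mean difference was -1.08 with a standard error of 0.24 over 12 libraries (limma adjusted p = 0.549) and an adjusted p of 0.0128 over the polysome libraries alone. With libraries set to equal medians that last p was 0.0501, and over the libraries left out 1 at a time it ran from 0.00851 to 0.0709. HSD17B10, which is not a member and was looked up after these values were seen, was at 188 ± 19.4 FPKM in the control, then 279.6 ± 53.7 FPKM after knockdown (SD, n = 3 each), so its mean lay above its control level.

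TRMT6, the noncatalytic chain of the nuclear enzyme that methylates an adenosine in the T loop of tRNA, was at 23.6, 26.3 and 24.4 FPKM in the control, then 13.2, 15.3 and 13.4 FPKM after knockdown, in polysome RNA. Its groups were again well apart, with a log2 difference of -0.78 (limma adjusted p = 0.0124 over the polysome libraries and 0.628 over 12). TRMT61A, the catalytic chain of the same enzyme, was at 27, 21.7 and 20.5 FPKM and then 36, 23 and 26.1 FPKM. Its groups overlapped and its mean lay above the control, and the difference between the 2 chains was not tested. TRMT61B, which makes the same modification in mitochondria and is named after its values were seen, went from 10.1, 11.4 and 10.7 FPKM to 5.90, 6.02 and 5.45 FPKM (adjusted p = 0.0113 over the polysome libraries).

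Over the 18 tRNA methyltransferases the median log2 difference was -0.12 and 6 were above 0, but with libraries set to equal medians it was 0.058 and 10 were above 0. All genes moved with this scaling too, to a median of 0.14 with 4902 of 8074 above 0. TRMT112, the most abundant member, was at 282, 409.6 and 425 FPKM in the control, then 372, 764 and 727 FPKM after knockdown, in polysome RNA, where the groups overlapped because knockdown repeat 1 lay below control repeats 2 and 3. NSUN6, the least abundant, was at 2.43, 3.70 and 3.82 FPKM against 1.49, 2.33 and 2.64 FPKM and overlapped as well. Neither passed either test.

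**Figure D2:**
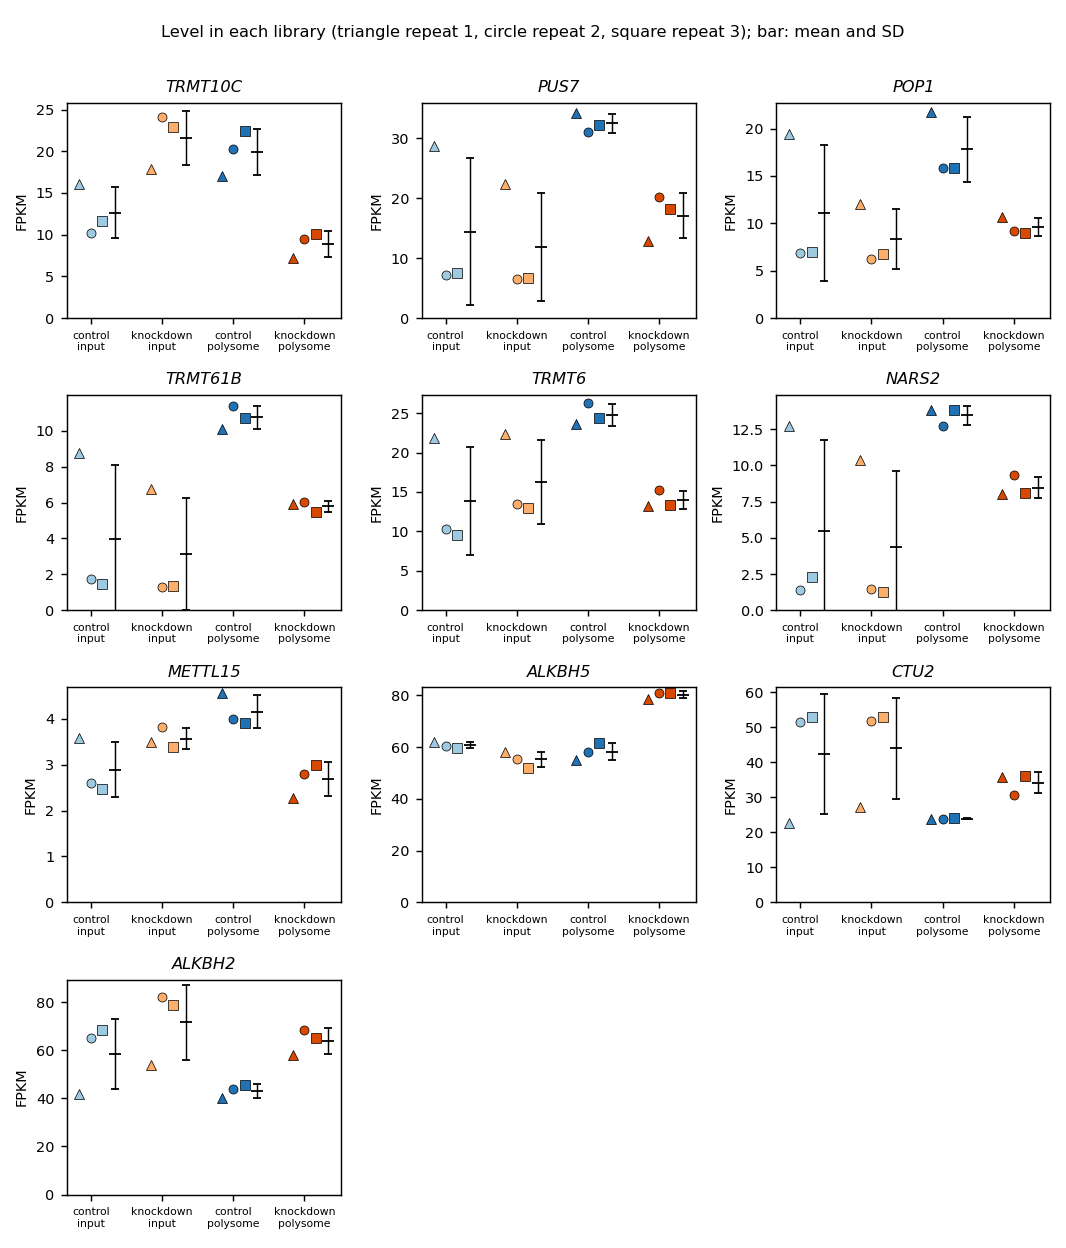
FPKM in each library for 10 of the 12 members called in the polysome libraries alone, as 1 point per library with the group mean and SD (n = 3), in control and knockdown input and polysome RNA. The axes start at 0, which cuts off some SD bars of input groups, and for TRMT10C the knockdown polysome points lie below all other groups while the knockdown input points lie above the control input points.

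The promoters of 4 of the members called in the polysome libraries are shown so that lower and higher members can be set side by side. RefSeq (GRCh38.p14) promoters were matched for 66 of the 84 members, and each sequence is the 250 bases before the annotated start, 5′ to 3′ on the gene's strand, with matches to CCGGAAG (the core bound by ETS factors) or CCAAT, on either strand, in capitals. TRMT10C (chr3:101561618-101561867, plus strand) and TRMT6 (chr20:5950534-5950783, minus strand) were lower, and ALKBH2 (chr12:109093473-109093722, minus strand) and CTU2 (chr16:88706253-88706502, plus strand) higher.
TRMT10C: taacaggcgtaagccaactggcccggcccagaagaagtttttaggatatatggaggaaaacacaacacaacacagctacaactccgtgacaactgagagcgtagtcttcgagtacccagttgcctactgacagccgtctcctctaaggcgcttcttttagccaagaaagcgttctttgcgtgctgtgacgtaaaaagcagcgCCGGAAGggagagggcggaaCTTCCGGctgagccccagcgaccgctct
TRMT6: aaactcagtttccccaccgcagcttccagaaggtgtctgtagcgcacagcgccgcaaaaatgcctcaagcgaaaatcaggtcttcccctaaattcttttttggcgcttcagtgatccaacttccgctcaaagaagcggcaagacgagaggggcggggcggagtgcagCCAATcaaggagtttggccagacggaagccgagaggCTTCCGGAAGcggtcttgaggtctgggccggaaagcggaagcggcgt
ALKBH2: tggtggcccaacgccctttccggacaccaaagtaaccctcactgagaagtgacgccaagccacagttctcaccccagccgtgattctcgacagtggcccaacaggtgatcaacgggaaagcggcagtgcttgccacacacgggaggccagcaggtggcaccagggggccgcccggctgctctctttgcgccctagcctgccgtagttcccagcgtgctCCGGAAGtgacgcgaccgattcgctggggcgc
CTU2: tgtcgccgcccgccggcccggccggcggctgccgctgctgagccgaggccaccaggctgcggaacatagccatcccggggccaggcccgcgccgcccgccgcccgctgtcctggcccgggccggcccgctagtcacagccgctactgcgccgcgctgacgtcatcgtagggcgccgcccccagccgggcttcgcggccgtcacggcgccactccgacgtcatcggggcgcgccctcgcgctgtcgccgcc
TRMT10C held CCGGAAG at 2 places, once on each strand, and TRMT6 held 2 matches on opposite strands that overlap, together with a CCAAT box. ALKBH2 held 1 CCGGAAG and CTU2 held neither motif. Of the called members with a matched promoter, 2 of 6 lower and 1 of 3 higher held CCGGAAG, all of them shown here. For CCAAT these were 2 of 6 and 0 of 3. Among promoters with an entry, CCGGAAG was found in 25.8% of members (17 of 66), 18.1% of the tested genes and 8.82% of all 27305 promoters. CCAAT was found in 34.8%, 36.1% and 33.0% of them, the E-box CACGTG in 3.03%, 9.39% and 6.49%, the TATA box TATAAA in 3.03%, 4.84% and 11.1%, and TTGCATCA, a core of ATF4 response elements, in 0%, 0.347% and 0.82%. CCGGAAG stood in promoters of members that were lower and of members that were higher, and a match is a description of letters only.

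Among the wobble uridine enzymes, ELP3, the catalytic subunit of Elongator, was at 11.9 ± 1.27 FPKM in the control polysome libraries, then 9.77 ± 0.568 FPKM after knockdown (SD, n = 3 each), lower without overlap but not past either test. CTU1 and CTU2, the pair that thiolates the wobble uridine, lay on the other side. CTU2 was at 23.8, 23.8 and 24.1 FPKM in the control, then 35.9, 30.8 and 36 FPKM in knockdown (log2 difference 0.50, adjusted p = 0.0396 over the polysome libraries), and CTU1 at 17.3, 16.2 and 18.5 FPKM against 23.3, 23.4 and 29.6 FPKM (adjusted p = 0.0581). All 6 CTU knockdown values exceeded the control values of their gene. In this role 3 of the 9 enzymes had a mean difference above 0, beside 3796 of 8074 genes. With libraries set to equal medians these were 6 of 9, beside 4902 of 8074.

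The 3 pseudouridine synthases had a median log2 difference of -0.64. PUS7 was at 34.2, 31 and 32.2 FPKM in the control, then 12.8, 20.2 and 18.1 FPKM after knockdown, in polysome RNA, lowest in repeat 1 (log2 difference -0.91, limma adjusted p = 0.0219 over the polysome libraries). PUS3, which acts in the anticodon stem and loop, was at 19.8, 21.2 and 21.8 FPKM against 9.43, 16 and 14.8 FPKM, without overlap (adjusted p = 0.0849). PUS1, which works in both nucleus and mitochondria, was higher after knockdown, with control values of 57.8, 56.5 and 59.4 FPKM against 74.7, 64.5 and 69.5 FPKM, also without overlap and short of the threshold (adjusted p = 0.18).

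The ALKBH dioxygenases, which remove methyl groups from nucleic acids and some proteins, had the highest median of the roles with at least 3 members, 0.40 on the log2 scale, with 5 of 6 above 0. ALKBH5, the m6A demethylase of mRNA, was at 55.2, 57.9 and 61.6 FPKM in the control, then 78.5, 81 and 81 FPKM after knockdown, in polysome RNA, with a log2 difference of 0.46 (limma adjusted p = 0.0404 over the polysome libraries and 0.602 over 12). ALKBH2, which repairs alkylated DNA, went from 40.05, 44 and 45.7 FPKM to 58.2, 68.5 and 65.1 FPKM (adjusted p = 0.0314). ALKBH4 was at 17.5 ± 0.191 and 22.3 ± 1.36 FPKM (SD, n = 3 each) without overlap and did not pass. Neither ALKBH2 nor ALKBH5 is counted among the 9 tRNA roles.

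Mitochondrial synthetases split, 7 of 12 above 0 with a median log2 difference of 0.078. NARS2, the asparaginyl enzyme, was at 13.8, 12.7 and 13.8 FPKM in the control, then 8, 9.31 and 8.08 FPKM after knockdown, in polysome RNA. It fell without overlap when the polysome libraries were tested alone (log2 difference -0.61, limma adjusted p = 0.0242). SARS2, VARS2 and TARS2, of the seryl, valyl and threonyl enzymes, differed by 0.22, 0.13 and 0.078, each with overlapping groups. The cytosolic phenylalanyl pair also lay on both sides: FARSA was at 81.5 ± 7.38 and 103 ± 15.3 FPKM without overlap, FARSB at 59.9 ± 8.35 and 51.2 ± 20.6 FPKM with overlap (SD, n = 3 each).

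AIMP1 and AIMP2 are scaffold proteins of the cytosolic multisynthetase complex. AIMP1 was at 24.8, 25.1 and 26.6 FPKM in the control, then 8.57, 20.1 and 18.8 FPKM after knockdown, in polysome RNA. The first knockdown value was less than all others and the groups did not overlap, but the gene did not pass over the polysome libraries (limma adjusted p = 0.152). AIMP2 was at 82.7, 78.1 and 78.7 FPKM against 93.8, 101 and 99.1 FPKM, above its control in each repeat (adjusted p = 0.126).

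Among the processing enzymes, POP1, the largest protein of RNase P and RNase MRP, was at 21.8, 15.8 and 15.9 FPKM in the control, then 10.7, 9.20 and 8.99 FPKM after knockdown, in polysome RNA (log2 difference -0.81, limma adjusted p = 0.0242 over the polysome libraries). It was the single member of the 10 in this complex to pass. Their median log2 difference of -0.023 became 0.15 with libraries set to equal medians, while that of all genes went from -0.031 to 0.14. POP7 and RPP25L were higher on average, at 203 ± 39.1 against 279 ± 47.1 FPKM and 33.9 ± 1.09 against 42.3 ± 4.43 FPKM (SD, n = 3 each), neither past the test. The 4 subunits of the splicing endonuclease also differed among themselves. TSEN15 was at 21.1 ± 0.405 FPKM in control against 15.3 ± 3.82 FPKM in knockdown polysome RNA, while TSEN54 was at 33 ± 1.62 against 45.3 ± 12 FPKM (SD, n = 3 each). None of the 4 passed, and TSEN34 overlapped. ELAC2, the long form of RNase Z, was at 40.6 ± 5.68 and 39.5 ± 7.51 FPKM.

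Of the members with other substrates, METTL15 was at 4.57, 4 and 3.90 FPKM in the control, then 2.28, 2.79 and 3 FPKM after knockdown, in polysome RNA (log2 difference -0.49, limma adjusted p = 0.0477 over the polysome libraries). NSUN5, which methylates cytoplasmic 28S rRNA, was at 33 ± 1.92 and 44.7 ± 1.81 FPKM (SD, n = 3 each) and just missed the threshold (adjusted p = 0.052). METTL5, the m6A methyltransferase of 18S rRNA, was at 68.4 ± 7.29 and 49.1 ± 15.9 FPKM with overlap. METTL3, the catalytic subunit of the m6A writer of mRNA, and METTL16 differed by -0.10 and 0.087 on the log2 scale, and METTL3 by 0.12 after quantile normalization and 0.075 with equal medians. METTL26, METTL7A, METTL7B and METTL18 differed by 0.37, 0.048, 0.22 and -0.46, and none passed. METTL2A with METTL2B, and NSUN5 with its pseudogene copies, are near-identical in sequence, so their counts are uncertain where reads were split.

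Input RNA of the members differed less clearly. After knockdown 0 of 84 passed, as did 0% of all genes, and 1 member had an unadjusted p under 0.05, beside 1.66% of all genes. That member was TRMT10C, at 16.1, 10.2 and 11.7 FPKM in the control, then 17.9, 24.1 and 22.9 FPKM in knockdown input, higher without overlap, with log2 differences of 0.15, 1.17 and 0.91 and a mean of 0.74 (limma adjusted p = 1). For this gene the knockdown libraries were above the control in input and below it in polysome RNA. METTL16 was also higher without overlap, at 11.3, 11.6 and 12.2 FPKM against 12.6, 17.1 and 18.9 FPKM, and ALKBH5, METTL3 and PUS1 lower without overlap. These 2 higher and 3 lower genes were 2.38% and 3.57% of the members, beside 1.91% and 2.42% of all genes. Repeat 1 dominated the spread of several others: PUS7 was at 28.6, 7.22 and 7.43 FPKM in control input and at 22.3, 6.57 and 6.68 FPKM in knockdown input, so repeat 1 was several times the other repeats in both kinds of cell. Without repeat 1 in any group, 42 members (50%) and 4092 genes (50.7%) passed.

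The difference between the polysome and the input change, the change in translation efficiency, was fitted as an interaction in the 12 libraries. It passed for 0 of 84 members and 0% of all genes. At an unadjusted p under 0.05 it had 6 members (7.14%) beside 4.16% of all genes. TRMT10C, TRMT6, AIMP1, PUS3 and METTL15 were lower (5.95%, beside 3.63% of all genes) and ALKBH5 higher (1.19%, beside 0.533%). TRMT10C differed by -1.83 with a standard error of 0.33 (repeats -1.29, -2.18 and -2.001, limma unadjusted p = 0.000233 and adjusted p = 0.841). ALKBH5 was higher in every repeat by nearly the same amount, 0.59, 0.60 and 0.58: its input RNA was at 61.9, 60.5 and 59.7 FPKM in the control, then 58.1, 55.5 and 52.1 FPKM in knockdown cells while its polysome RNA was higher after knockdown. The interaction of TRMT6 was -1.05, of AIMP1 -1.24, of PUS3 -0.73 and of METTL15 -0.73 on the log2 scale. Translation efficiency did not overlap between knockdown and control in 15 higher members (17.9%) and 7 lower (8.33%), beside 10.6% and 6.08% of all genes. Input was lower and polysome RNA higher in all 3 repeats in 6 members (ALKBH5, METTL17, METTL27, PUS1, TARS2 and TRMT2A), 7.14% beside 3.88% of all genes, and the reverse held in 5 (METTL9, NSUN6, TRMT10C, TRMT5 and TRMT6), 5.95% beside 5.46%. The median interaction was 0.15 over the members and 0.043 over all genes, and the members' median was -0.075 without control input repeat 1 and -0.012 without knockdown input repeat 2. Without repeat 1 in any group, 62 members (73.8%) and 5410 genes (67%) passed.

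**Figure D3:**
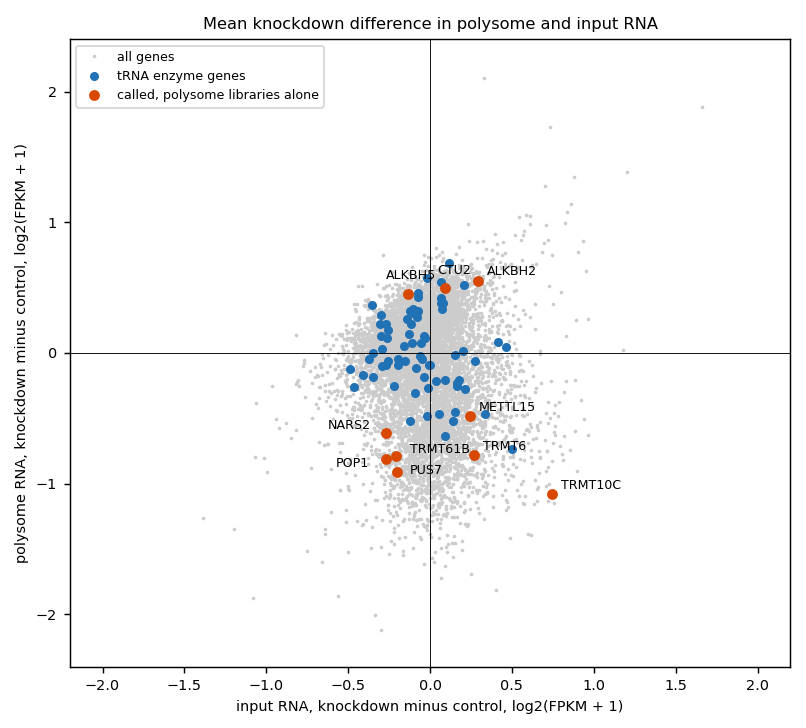
Mean knockdown minus control difference of log2(FPKM + 1) in polysome RNA (vertical) against input RNA (horizontal), with 81 members in blue, 10 of them, called in the polysome libraries alone, in orange with their names, and all genes in grey. TRMT10C lies to the lower right, at 0.74 in input and -1.08 in polysome RNA, and ALKBH5 lies above 0 in polysome and below 0 in input RNA.

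In control cells alone, polysome RNA was set against input RNA to describe where the members lie without knockdown. TRMT10C was at 17, 20.3 and 22.4 FPKM in polysome and 16.1, 10.2 and 11.7 FPKM in input RNA, and TRMT1, a guanine methyltransferase, at 24.5, 26.1 and 25.6 FPKM against 26.9, 77.8 and 76.4 FPKM. Of the members, 0 of 84 passed, and 17 (20.2%) had an unadjusted p under 0.05, beside 21.5% of all genes. The groups did not overlap in 16 members higher in polysome RNA (19.0%) and in 2 lower, PUS1 and TRMT1 (2.38%), beside 18.7% and 3.01% of all genes. Over the members the median log2 difference was 0.19, against 0.39 over all genes, and with libraries set to equal medians these were -0.36 and -0.16. Without control input repeat 1 the test passed 41 members (48.8%) and 3945 genes (48.9%). TRMT61B, TRMT6, NSUN2, PUS7 and METTL15 were among the 16 higher genes. This comparison shares the control polysome libraries with the polysome comparison, so values of a gene in the 2 comparisons are not independent.

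Members with long genes lay lower in polysome RNA after knockdown. Among the 28 members of the shortest genes (1.37 to 8.63 kb of genomic span) the median log2 difference was 0.25 and 19 were above 0, among the 28 of middle length it was -0.015 with 14 above 0, and among the 28 longest (33.9 to 522 kb) it was -0.21 with 4 above 0. The longest group held 6 of the 9 lower calls and 0 of the 3 higher calls. The shares of all genes in these span ranges were not counted, so these counts show nothing particular to the members. Over the 84 members the Spearman correlation of the polysome difference with span was -0.50, and over 8068 genes with a span it was -0.45, of similar size. With the mean of log2(FPKM + 1) over the libraries it was 0.54 over the members and 0.37 over all genes. Members share libraries and span is tied to level, and these correlations are descriptions across genes, which are not independent replicates. With the trend on span removed over all genes, an alternative added after the data were seen, 5 of the 12 members still passed in the polysome libraries, TRMT10C, TRMT6, TRMT61B and ALKBH5 among them, which is 5.95% of the members beside 7.08% of all genes. Whether span, or something that moves with it, has a part in the polysome differences was not tested.

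**Figure D4:**
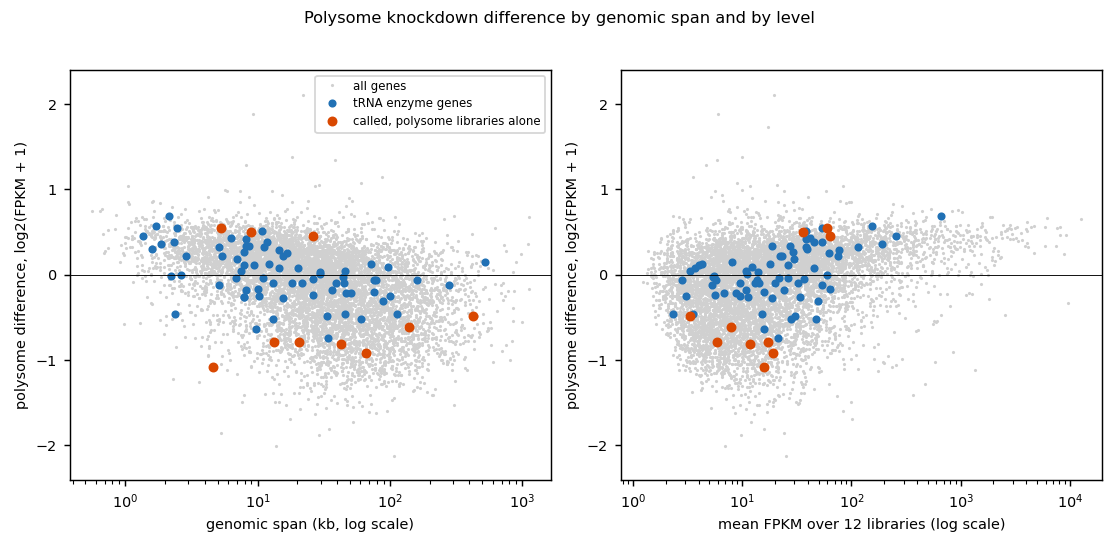
Knockdown minus control difference of log2(FPKM + 1) in polysome RNA of 81 members against genomic span in kilobases and against mean FPKM, both on log axes, with 1 point per member, members called in the polysome libraries alone in orange and all genes in grey. The points drift downward with span and upward with level.

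Outside the name rule, 57 of 74 listed genes of the tRNA pathway were analysed, among them factors for export, ligation, acetylation, dihydrouridine and amidation. In the polysome libraries alone 6 of the 57 were called lower and 0 higher, beside 12.7% and 1.09% of all genes. They were XPOT, the nuclear export receptor of tRNA, DDX1 and FAM98B of the tRNA ligase complex, THUMPD3, GATC of the mitochondrial amidotransferase and EEF1E1, of which XPOT, THUMPD3, GATC and EEF1E1 were picked after their values were seen. DDX1 was at 19, 27.6 and 26.5 FPKM in the control, then 6.28, 13.6 and 11.9 FPKM after knockdown, in polysome RNA (limma adjusted p = 0.0431), and FAM98B at 8.08, 7.48 and 8.41 FPKM against 3.72, 5.01 and 4.34 FPKM (adjusted p = 0.0166). XPOT was at 41.6, 35.4 and 33 FPKM against 15.6, 18.1 and 16.8 FPKM (adjusted p = 0.0084), the lower values all below the control. SSB, the La protein that binds new tRNA 3′ ends, went from 46.7, 84.2 and 87.5 FPKM to 14.6, 35.8 and 34.3 FPKM without overlap and did not pass (adjusted p = 0.0626), and THUMPD1, an adaptor of tRNA acetylation, was at 10.4 ± 2 and 5.79 ± 2.98 FPKM (SD, n = 3 each). WDR4, the partner of METTL1, was at 16.6 ± 0.838 FPKM in the control, then 18.2 ± 0.384 FPKM after knockdown (SD, n = 3 each).

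Called members lie across the genome (GRCh38): TRMT10C on chromosome 3 from 101561868 to 101566446, TRMT6 on chromosome 20 from 5937228 to 5950533, PUS7 on chromosome 7 from 105456501 to 105522271, NARS2 on chromosome 11 from 78435968 to 78574864, METTL15 on chromosome 11 from 28108388 to 28532475, ALKBH5 on chromosome 17 from 18183828 to 18209954, ALKBH2 on chromosome 12 from 109088189 to 109093472 and CTU2 on chromosome 16 from 88706503 to 88715396. These are whole gene intervals of the RefSeq gene table, introns included, and the expression values are sums over each gene's exons only as far as the authors' counting did so, which is not given in the sources used here.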

How the data were processed

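Input RNA and polyribosome-associated mRNA of MHCC97H cells were used, 12 libraries in 4 groups of 3, with groups and repeat numbers from the sample titles. The other 14 samples of the series, small RNA libraries, were not used here. Gene values were deposited as FPKM. The submitters' processing notes list Bowtie2, HTSeq and GRCh38, with neither version nor role. Annotation, strand setting and normalization: not given in the sources used here. Columns headed "treated" were read as the polysome fraction, the only other kind being input. FPKM holds no read depth, so precision rests on the repeats.

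Log2(FPKM + 1) was fitted by group means with limma 3.58.1 in R 4.3.3 (empirical Bayes with intensity trend, two-sided, Benjamini-Hochberg over 8074 genes, adjusted p of at most 0.05), once with 12 libraries and once with only the 6 from polysomes. The fits were run on simulated data with independent noise at the spread of the polysome groups. Those data held neither the wider input spread nor the shared shift of repeat 1, so they do not test the fits under these. No gene was filtered. Values of a few genes are left out of the text and figures, but not of the counts. The members, the role lists and the tests were chosen with earlier results of these data known. The genes named were, per role, up to 3 with the smallest p in the polysome comparison, the smallest p for translation efficiency and for input, and the highest mean, plus 4 other pathway genes, and exceptions are stated. Deviations from the group means went together in libraries of the same number, with correlations across genes of 0.319 to 0.942 in 18 pairs, and those of repeat 2 with repeat 3 were 0.333 to 0.928. Libraries of different numbers gave -0.940 to 0.928. Repeat 1 stood apart, which by itself can give such values, so the number as a block is given as an alternative. Alternatives were the block, another pseudocount, a level filter, 2 scalings, repeats averaged or left out, and removal of a trend on genomic span. Positions and promoters came from RefSeq tables (GRCh38).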

Additional observations from a re-analysis of the deposited data

How the results depend on the processing

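Over all 12 libraries 0 members passed in the polysome comparison under every alternative run except the one without repeat 1 in any group, where 48 passed (57.1%, beside 64.5% of all genes). In that setting 42 passed in input RNA (50%, beside 50.7%), 62 for translation efficiency (73.8%, beside 67%) and 73 for polysome against input in control cells (86.9%, beside 88.1%). In the polysome libraries alone the 12 calls became 36 with the replicate block (42.9%, beside 42% of all genes), 0 with repeats 2 and 3 averaged (beside 0%), 48 without repeat 1 (57.1%, beside 63%) and 5 with the trend on genomic span removed, chosen after seeing the data (5.95%, beside 7.08%). They were 0 to 25 when 1 library was left out, beside 0% to 31.6% of all genes. A pseudocount of 0.1, a mean of at least 5 FPKM and quantile normalization gave 11 each, beside 13.8%, 11.7% and 11.2% of all genes tested, and equal medians 9, beside 8.14%. The block called all 12 and changed no member call in the other comparisons. Leaving out 1 library gave 0 to 41 members for polysome against input in control cells, the latter without control input repeat 1 (48.8%, beside 48.9% of all genes). Of 28 members recomputed singly, 25 kept their direction in the fit of 12 libraries under every alternative. These 28 were up to 2 per role with the smallest p in the polysome comparison, plus those called in the polysome libraries. They were picked for clear differences in these same data and do not stand for all 84. With equal medians, members above 0 in polysome RNA went from 37 to 54 of 84, beside 3796 to 4902 of 8074 genes.

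The members' median log2 difference in polysome RNA was 0.12 after quantile normalization (all genes 0.076), 0.13 with equal medians (all genes 0.14), 0.011 without repeat 1, 0.069 with the span trend removed and -0.074 to 0.024 when 1 library was left out. The members' median in input RNA was -0.11 to 0.043 and that for translation efficiency -0.075 to 0.17 over libraries left out. For translation efficiency it was 0.29 with equal medians, beside 0.19 over all genes. For polysome against input in control cells the members' median was -0.23 after quantile normalization and -0.36 with equal medians, beside -0.050 and -0.16 over all genes. METTL3 turned to 0.12 after quantile normalization, 0.075 with equal medians and 0.095 without repeat 1, and ran from -0.27 to 0.21 over libraries left out. ELAC2 turned to 0.13 with equal medians and 0.10 with the span trend removed (-0.19 to 0.061 over libraries left out), and FARSB to 0.038 with the trend removed (-0.52 to 0.081). The cause was not tested. Without read depth, differences of low genes cannot be set against counting error, and the knockdown rests on 1 hairpin.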
